A study of Homo sapiens with 60 samples.

Results

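Aconiti Lateralis Radix Preparata is the processed root of aconite, and the data described here are the response of HT29 cells to 500 µg/mL of its hot water extract (the high dose), set against 100 µg/mL (the medium dose). HT29 is an established human colorectal adenocarcinoma line of epithelial cells. The members are 6 of the 60 RNA-seq libraries of the series, chosen by their labels as 3 replicates of the high dose and 3 of the medium dose, all collected after 24 h. Libraries of the low dose (20 µg/mL, 3 libraries) and of the DMSO vehicle (3 libraries) show where the medium dose stood, and 6 libraries of Bupleuri Radix (bupleurum root) at the high and medium doses serve as another extract for comparison. All cells were of 1 line, and the labels do not say whether replicates came from separate cultures, so the p-values rest on the spread of these libraries alone, part of which may be technical. The titles of all these libraries carry the name BatchB. The labels give 0.1% DMSO for the vehicle, and the design text gives a different percentage. The design text also says that extracts too toxic for the top dose were given at lower concentrations. The labels of the high-dose libraries state 500 µg/mL.

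Mammalian cells that run short of amino acids, or whose mitochondria or endoplasmic reticulum are disturbed, phosphorylate the initiation factor eIF2α, which slows most translation and favours translation of the transcription factor ATF4. ATF4 then raises genes of amino acid synthesis and uptake, transfer RNA charging and stress signalling, a programme called the integrated stress response. The mitochondrial genome is transcribed into long precursors that are cut into the 12S and 16S ribosomal RNAs (MT-RNR1 and MT-RNR2), transfer RNAs and the mRNAs of respiratory chain subunits.

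The 3 high-dose libraries held 23.82, 15.94 and 33.87 M counts (M stands for mega) and the 3 medium-dose libraries 21.50, 29.88 and 23.84 M, within a range of 10.35 to 40.05 M over the series. High replicate 2, the shallowest of the 6, stood apart. Its root mean square deviation from the mean of its group was 0.427 on the log2 scale, against 0.275 and 0.24 in the other high-dose libraries and 0.169 to 0.179 in the medium-dose libraries. Its deviation fell with exon length (Spearman's rho over genes −0.343, against 0.299 and 0.31 in the other high-dose libraries), and genes of cytosolic ribosomal proteins lay a median of 0.50 above the group mean in it. The group mean includes high replicate 2, which adds to the deviations of the other high-dose libraries and turns them the opposite way. Against the medium-dose mean, rho was 0.0864, −0.326 and 0.0574 in high replicates 1, 2 and 3. Counts of calls are therefore given with all 6 libraries and with the 5 that remain without high replicate 2. All 12 epithelial and HT29 markers had a mean of at least 1 CPM (counts scaled to a common library size) over the 6 libraries. Of the other lists, that of leukocytes had 3 of 6 at that level (CD14, CD68 and LYZ), none at 0, and summed to 1290 to 1920 CPM at the high dose and 1430 to 1600 CPM at the medium dose. That of fibroblasts had 2 of 6 (COL1A1 and LUM; COL1A2 at 0) and summed to 2.45 to 2.93 and 2.37 to 2.69 CPM, that of endothelium 2 of 5 (PECAM1 and TEK; CDH5 and KDR at 0) and 2.41 to 3.01 and 2.7 to 4.03 CPM in the same order. None of 5 hepatocyte markers (ALB and APOA2 at 0) and none of 4 neuron markers (SNAP25 at 0) reached it, with sums under 1 CPM in every library. The part of the cells these markers stand for in the results was not tested.

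With all 6 libraries, 11 of 14764 genes tested passed an adjusted p of 0.05 (0.0745%; edgeR's quasi-likelihood test with Benjamini-Hochberg adjustment), 10 higher (0.0677%) and 1 lower (0.00677%) at the high dose than at the medium dose. Of the gene lists described here, edgeR then called members in 3 alone, 7 of the stress response, 1 of the immediate early genes (ATF3, also on the first list) and 1 of the mitochondrial mRNAs, so that calls in any other list are calls without high replicate 2. The 11 genes were both mitochondrial ribosomal RNAs, the integrated stress response genes CHAC1, ASNS, DDIT4, PSAT1, ATF3, TRIB3 and PCK2, the long non-coding RNA LINC01133 and, lower, the mitochondrial mRNA MT-ND2. At an unadjusted p under 0.05 by edgeR there were 892 genes, and 2933 of 15027 without high replicate 2. DESeq2 called 129 genes with 6 libraries and 506 without high replicate 2. List counts at an unadjusted p or by DESeq2 stand beside these numbers, which hold both directions. The count of 11 was 10 without high replicate 1, 6 without high replicate 3 and 4 without any 1 of the medium-dose libraries. The 10 were a different set, 6 higher and 4 lower, without ATF3, TRIB3, PCK2 and LINC01133. When high replicate 2 was left out, 770 of 15027 genes passed (5.12%), 432 higher (2.87%) and 338 lower (2.25%), and all 11 were among them. The typical variation between replicates (biological coefficient of variation in edgeR) was 14.3% with high replicate 2 and 3.95% without it. Of the 770 genes, 765 were also tested with 6 libraries and 696 of these had the same sign there. The changes were mostly small: 33 of the 770 genes were higher by at least 1 on the log2 scale and 28 lower by at least 1. The median log2 fold change of all genes tested was 0.00795 with 6 libraries and −0.0039 with 5. The count without high replicate 2 dropped to 267 without high replicate 1, to 269 without high replicate 3 and to 371 without medium replicate 3, and it was 754 and 554 without medium replicates 1 and 2. The fits without a further high-dose library rest on 1 high-dose library, which is assumed to vary like the medium-dose group. With 3 libraries against 3, an exact permutation test of a single gene cannot go below p = 0.1.

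The largest change was in the ribosomal RNAs of the mitochondrion. MT-RNR1, the 12S RNA of the small mitochondrial ribosomal subunit (chromosome M, bases 648 to 1601, plus strand, GRCh38), had 31200, 32100 and 28700 CPM at the high dose and 3340, 3390 and 2920 CPM at the medium dose. Every high-dose library was far above every medium-dose library, with a log2 fold change of 3.25 ± 0.11 (SE, adjusted p = 0.000253, edgeR, n = 3 each) and of 3.21 ± 0.07 without high replicate 2 (adjusted p = 1.05e-11). MT-RNR2, the 16S RNA of the large subunit (chromosome M, bases 1671 to 3229), had 104000, 106000 and 89800 CPM at the high dose and 18300, 17900 and 16400 CPM at the medium dose, a log2 fold change of 2.51 ± 0.12 (adjusted p = 0.000802, edgeR) and of 2.46 ± 0.07 without high replicate 2 (adjusted p = 1.41e-10). High replicate 2 lay with the other high-dose libraries for both RNAs. Together they took 12.5%, 12.1% and 11.3% of all counts at the high dose and 2.18%, 2.16% and 1.96% at the medium dose. The labels call these mRNA libraries and do not say how mRNA was selected, and the values are levels of these RNAs in such libraries.

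The mitochondrial mRNAs moved the other way. Their 13 members took 4.07%, 3.74% and 2.76% of counts at the high dose and 7.57%, 7.29% and 6.76% at the medium dose, with no overlap. In bulk libraries, fewer cells with an RNA and less of it per cell cannot be told apart. With 6 libraries, 1 of the 13 mRNAs fell (MT-ND2; DESeq2 called 9), and 10 had all high-dose libraries below all medium-dose libraries, which 8.53% of all genes tested did. In the 5 libraries without high replicate 2, 11 of 13 fell, with a median log2 fold change of −0.96 over the 13. The share of all genes called lower there was 2.25%. MT-ND2, a subunit of respiratory complex I (chromosome M, bases 4470 to 5511), had 2910, 2430 and 2210 CPM at the high dose and 6370, 6160 and 5630 CPM at the medium dose. Its log2 fold change was −1.27 ± 0.13 (adjusted p = 0.0314, edgeR, 6 libraries) and −1.25 ± 0.09 without high replicate 2 (adjusted p = 4.55e-06). The call with 6 libraries was lost without high replicate 3 or any medium-dose library (adjusted p up to 0.36, without medium replicate 2).

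Among the other mRNAs, the size of the difference varied with the gene. MT-ND1, another complex I subunit, had 2930, 2150 and 1950 CPM at the high dose and 6160, 6580 and 5110 CPM at the medium dose, and fell by 1.29 ± 0.14 without high replicate 2 (adjusted p = 0.000117, edgeR; 0.0881 with 6 libraries). MT-CO3, a subunit of cytochrome c oxidase, had 6590, 6180 and 5050 CPM at the high dose and 11200, 11000 and 11200 CPM at the medium dose, and fell by 0.94 ± 0.08 (adjusted p = 2.69e-05; 0.0806 with 6 libraries). The complex I genes MT-ND4 and MT-ND4L and the ATP synthase gene MT-ATP8 fell by 1.16 ± 0.16, 1.13 ± 0.13 and 1.21 ± 0.09 without high replicate 2. MT-ND4L overlaps MT-ND4 and MT-ATP8 overlaps MT-ATP6, so reads within the overlaps can be split between the genes of each pair. MT-CYB, the cytochrome b of complex III, fell by 0.74 ± 0.11 without high replicate 2 (adjusted p = 0.00113), but high replicate 2 had 6680 CPM of it, against 4080 and 2840 CPM in the other high-dose libraries and 5800, 5930 and 5600 CPM at the medium dose.

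MT-ND5 and MT-ND6 did not pass in either fit. MT-ND5 had 2600, 2780 and 1450 CPM at the high dose and 2730, 2480 and 1800 CPM at the medium dose, and MT-ND6, the mRNA encoded on the other strand, 291, 480 and 173 CPM and 243, 269 and 205 CPM. The sign of both differences changed with the libraries left out. MTND2P28 and MTND4P12, nuclear pseudogene copies that share near-identical sequence with MT-ND2 and MT-ND4, fell by 1.30 ± 0.12 and 1.28 ± 0.23 without high replicate 2 (adjusted p = 2.69e-05 and 0.00583, edgeR), the second call being lost without high replicate 3 (adjusted p = 0.0836). Reads can be shared between such copies and the mitochondrial genes.

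A pair of ratios within the mitochondrial transcripts separated the doses without reference to other genes. Counts of the 2 ribosomal RNAs were 3.08, 3.23 and 4.08 times those of the 13 mRNAs at the high dose and 0.288, 0.297 and 0.29 times at the medium dose. The 12S RNA also rose more than the 16S RNA, so that the 16S to 12S ratio was 3.33, 3.3 and 3.13 at the high dose and 5.48, 5.27 and 5.6 at the medium dose. For both ratios the medium dose lay between the high dose and the lower doses: the ribosomal RNA to mRNA ratio was 0.137 to 0.15 in vehicle and 0.114 to 0.159 at the low dose, and the 16S to 12S ratio 7.83 to 8.16 in vehicle and 8.36 to 8.74 at the low dose. The mRNA share was 8.91%, 7.6% and 8.32% in vehicle and 9.92%, 7.22% and 6.43% at the low dose, a range that held the medium-dose libraries and not the high-dose ones.

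**Figure D1:**
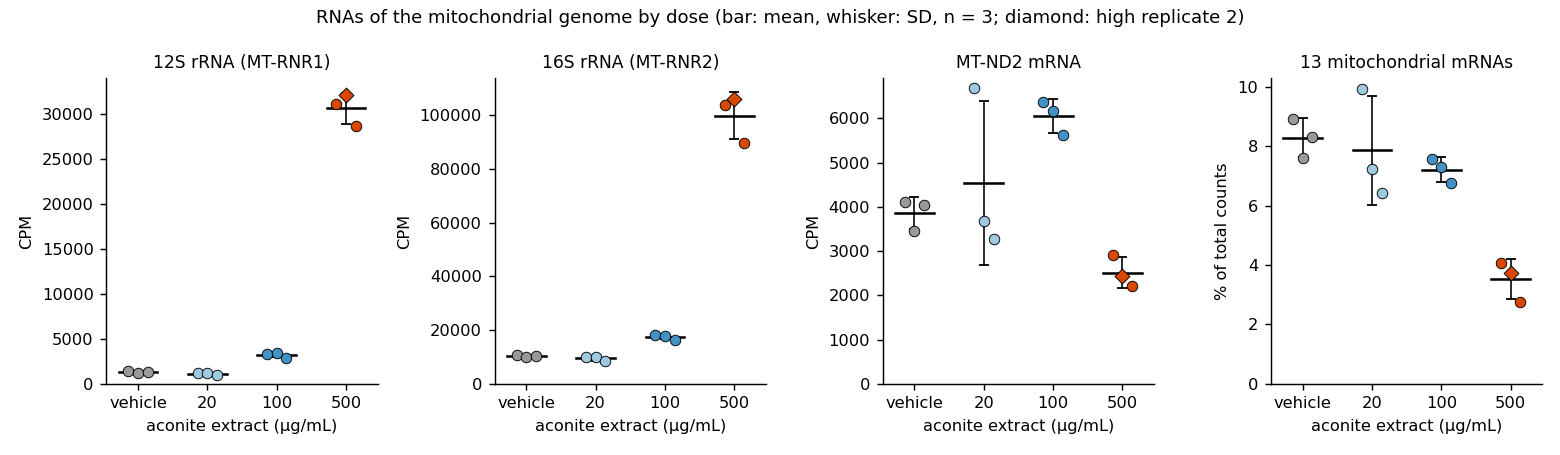
RNAs of the mitochondrial genome by aconite dose (x axis, vehicle and 20, 100 and 500 µg/mL): MT-RNR1, MT-RNR2 and MT-ND2 in CPM and the share of all counts taken by the 13 mitochondrial mRNAs in % (y axes), 1 point a library, bars for the mean and whiskers for the SD of 3 libraries, with high replicate 2 as a diamond. MT-RNR1 reached 28700 to 32100 CPM at the high dose, and the mRNA share was lowest there, at 2.76% to 4.07%.

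The genes of the integrated stress response rose together at the high dose. Of 31 genes listed, 28 were tested, 7 passed with 6 libraries and 27 without high replicate 2, all higher. The number was 22 to 26 when a library was left out besides high replicate 2. The 7 were 4 without high replicate 1 or high replicate 3 and 2 without any 1 of the medium-dose libraries, and DESeq2 called 19 with 6 libraries. Their median log2 fold change was 0.82 with 6 libraries and 0.78 without high replicate 2. In each high-dose library the median of the members lay above the medium-dose mean, by 0.78, 0.91 and 0.78 on the log2 scale in replicates 1, 2 and 3. For 25 of the 28, all 3 high-dose libraries were above all 3 medium-dose libraries, which 8.02% of all genes tested were. The shares of all genes called higher were 0.0677% with 6 libraries and 2.87% without high replicate 2.

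CHAC1, which degrades the antioxidant glutathione (chromosome 15, bases 40952962 to 40956519, plus strand, GRCh38), had 22.1, 17.7 and 20.8 CPM at the high dose and 4.12, 3.39 and 3.97 CPM at the medium dose. Its log2 fold change was 2.40 ± 0.13 (adjusted p = 0.00154, edgeR, 6 libraries) and 2.49 ± 0.09 without high replicate 2 (adjusted p = 2.86e-09). DDIT4, an inhibitor of the growth kinase complex mTORC1 (chromosome 10, bases 72273920 to 72276036), had 66.6, 76.9 and 69.1 CPM at the high dose and 19.9, 18.9 and 20.2 CPM at the medium dose, and rose by 1.84 ± 0.09 (adjusted p = 0.000802) and by 1.78 ± 0.05 without high replicate 2 (adjusted p = 2.44e-10). Neither gene's groups came near each other. These 2 genes and the 2 ribosomal RNAs were called with 6 libraries under every alternative tried. LINC01133, outside the naming rule, had 2.09, 2.29 and 2.08 CPM at the high dose and 0.509, 0.559 and 0.454 CPM at the medium dose (log2 fold change 2.05 ± 0.19, adjusted p = 0.0248, edgeR), a call lost without high replicate 1, high replicate 3 or any medium-dose library (adjusted p up to 0.291, without medium replicate 1).

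Enzymes of amino acid synthesis were among the strongest rises. ASNS, which makes asparagine (chromosome 7, bases 97852118 to 97872542, minus strand), had 206, 303 and 207 CPM at the high dose and 64.3, 63.7 and 64.2 CPM at the medium dose. Its log2 fold change was 1.89 ± 0.16 (adjusted p = 0.0165, edgeR, 6 libraries) and 1.69 ± 0.04 without high replicate 2 (adjusted p = 2.08e-11). PSAT1, the second enzyme of serine synthesis, had 256, 304 and 264 CPM at the high dose and 115, 110 and 109 CPM at the medium dose and rose by 1.30 ± 0.09 (adjusted p = 0.00668). PHGDH, the first enzyme of that pathway, had 54, 71.5 and 53.5 CPM at the high dose and 28.6, 27.2 and 27 CPM at the medium dose, and passed without high replicate 2 only (log2 fold change 0.96 ± 0.05, adjusted p = 1.75e-07; 0.0571 with 6 libraries). High replicate 2 was the highest of the libraries for all of these enzymes. The calls of ASNS and PSAT1 with 6 libraries were lost without any 1 of the medium-dose libraries (adjusted p up to 0.278 and 0.172, without medium replicate 2), and those without high replicate 2 held whichever further library was left out.

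Transcription factors and regulators of the response were also higher. ATF4 itself had 361, 425 and 352 CPM at the high dose and 258, 255 and 266 CPM at the medium dose (log2 fold change 0.45 ± 0.04 without high replicate 2, adjusted p = 1.93e-05, edgeR). ATF3, a stress-induced transcription factor, had 6.27, 7.22 and 6.42 CPM at the high dose and 2.69, 2.66 and 3.06 CPM at the medium dose, a log2 fold change of 1.23 ± 0.13 (adjusted p = 0.0391, 6 libraries). DDIT3, the factor also called CHOP, had 10.2, 11.7 and 9.09 CPM at the high dose and 5.33, 5.72 and 5.45 CPM at the medium dose (0.79 ± 0.10 without high replicate 2, adjusted p = 0.000468). None of the 3 had overlapping groups. TRIB3, a pseudokinase that feeds back on ATF4, had 94.1, 87.8 and 90.4 CPM at the high dose and 48.2, 43 and 46.1 CPM at the medium dose (0.98 ± 0.08, adjusted p = 0.0146, 6 libraries). PCK2, the mitochondrial form of phosphoenolpyruvate carboxykinase, had 48.6, 47.1 and 50.1 CPM at the high dose and 25.9, 24.7 and 28.4 CPM at the medium dose (0.88 ± 0.09, adjusted p = 0.0307, 6 libraries). With 6 libraries the calls of ATF3, TRIB3 and PCK2 were lost without high replicate 1, high replicate 3 or any medium-dose library (adjusted p up to 0.444, 0.229 and 0.38), while all 3 passed without high replicate 2 and whichever further library was left out.

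Transporters, secreted factors and other members rose too, without high replicate 2. SLC6A9, a glycine transporter, had 4.31, 2.57 and 5.61 CPM at the high dose and 1.16, 0.592 and 1.12 CPM at the medium dose (log2 fold change 2.43 ± 0.24 without high replicate 2, adjusted p = 4.91e-05, edgeR). ADM2, a peptide hormone of the adrenomedullin family, had 9.99, 5.93 and 11.3 CPM at the high dose and 2.69, 2.11 and 2.35 CPM at the medium dose (2.17 ± 0.13, adjusted p = 4e-07). SLC7A5, the light chain of the large neutral amino acid transporter, had 646, 361 and 622 CPM at the high dose and 343, 322 and 348 CPM at the medium dose (0.91 ± 0.04, adjusted p = 5.31e-08; 0.661 with 6 libraries). In SLC7A5 high replicate 2 was nearer to the medium-dose libraries than to its own group. SLC1A4, which carries alanine, serine and cysteine, SESN2, an inhibitor of mTORC1, and JDP2, a repressor of AP-1, rose by 1.21 ± 0.07, 1.14 ± 0.07 and 1.20 ± 0.14 without high replicate 2 (adjusted p = 5.11e-07, 1.11e-06 and 0.0002). VLDLR, a lipoprotein receptor, rose by 1.00 ± 0.12 (adjusted p = 0.000296) and had 6.72, 7.22 and 7.38 CPM at the high dose and 3.33, 3.42 and 3.8 CPM at the medium dose. The only tested member of the list that did not pass without high replicate 2 was ALDH1L2, a mitochondrial folate enzyme, with 0.5, 0.429 and 0.279 CPM at the high dose and 0.602, 0.855 and 0.454 CPM at the medium dose, levels under 1 CPM.

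TGATGNAA is the sequence that ATF4 is known to bind with C/EBP proteins. Of the stress response genes called with 6 libraries, DDIT4, PSAT1, TRIB3 and PCK2 had no match in their promoters. The promoters of CHAC1, ASNS and ATF3, which hold it, and of PSAT1 are shown. Each is the 300 bases around the start of the gene in RefSeq (GRCh38.p14), most of them before the start, 5′ to 3′ on the gene's strand, with the match on either strand in capitals. They lie at chr15:40953221-40953520 on the plus strand (CHAC1, match at base −209 from the start), chr7:97872359-97872658 on the minus strand (ASNS, −68), chr1:212565157-212565456 on the plus strand (ATF3, −191) and chr9:78296875-78297174 on the plus strand (PSAT1, no match).
CHAC1: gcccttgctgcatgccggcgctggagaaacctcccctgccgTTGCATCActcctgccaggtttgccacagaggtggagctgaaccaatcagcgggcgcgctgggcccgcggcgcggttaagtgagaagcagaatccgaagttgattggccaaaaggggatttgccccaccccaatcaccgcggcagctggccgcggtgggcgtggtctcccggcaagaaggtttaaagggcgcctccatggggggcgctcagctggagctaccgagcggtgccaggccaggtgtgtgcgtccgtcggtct
ASNS: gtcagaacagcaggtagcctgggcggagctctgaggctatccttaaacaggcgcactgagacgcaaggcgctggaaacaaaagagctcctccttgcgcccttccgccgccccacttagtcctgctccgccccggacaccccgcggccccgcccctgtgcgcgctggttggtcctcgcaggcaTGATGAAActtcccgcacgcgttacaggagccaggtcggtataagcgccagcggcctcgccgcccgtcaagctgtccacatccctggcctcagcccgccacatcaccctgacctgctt
ATF3: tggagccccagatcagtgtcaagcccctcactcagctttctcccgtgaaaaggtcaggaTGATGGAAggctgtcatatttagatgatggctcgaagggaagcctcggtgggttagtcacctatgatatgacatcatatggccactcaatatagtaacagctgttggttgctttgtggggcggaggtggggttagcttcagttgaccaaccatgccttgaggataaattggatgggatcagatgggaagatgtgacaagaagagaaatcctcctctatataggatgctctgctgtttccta
PSAT1: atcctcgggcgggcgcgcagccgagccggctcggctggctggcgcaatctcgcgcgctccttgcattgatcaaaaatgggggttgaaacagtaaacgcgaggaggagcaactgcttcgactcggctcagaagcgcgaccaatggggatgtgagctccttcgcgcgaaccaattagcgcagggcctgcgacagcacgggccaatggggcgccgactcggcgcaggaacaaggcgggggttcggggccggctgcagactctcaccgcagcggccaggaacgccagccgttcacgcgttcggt

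Such matches were found in 1003 of 27305 promoters of the same length in the RefSeq table (3.67%). Of the 11 genes called with 6 libraries, 8 had a promoter in the table and 4 of these held the motif (50%). They were CHAC1, ASNS, ATF3 and a gene outside the stress response list. Of the stress response list, 6 of the 26 promoters found held it (23.1%). Among genes called without high replicate 2, 26 of 316 promoters of higher genes (8.23%) and 7 of 249 promoters of lower genes (2.81%) held it. Other motifs searched on both strands in the promoters of the list were also more frequent there than in the whole table: the NRF2 motif TGACNNNGC in 9 of 26 (34.6%, against 13.6%) and the aryl hydrocarbon receptor core GCGTG in 17 of 26 (65.4%, against 36.3%). The E box CACGTG (7.69%, against 7.43%), the AP-1 motif TGANTCA (7.69%, against 7.76%) and the CRE TGACGTCA (3.85%, against 1.98%) were in 1 or 2 promoters each, and motifs of heat shock factor and NF-κB in none. Genes called without high replicate 2 in either direction also exceeded the whole table for TGACNNNGC and GCGTG. TGACNNNGC was in 17.4% of promoters of higher genes and 18.1% of lower genes, and GCGTG in 50% and 42.6%. A match describes the letters of this window and does not show binding, and its absence says only that these letters are not there.

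**Figure D2:**
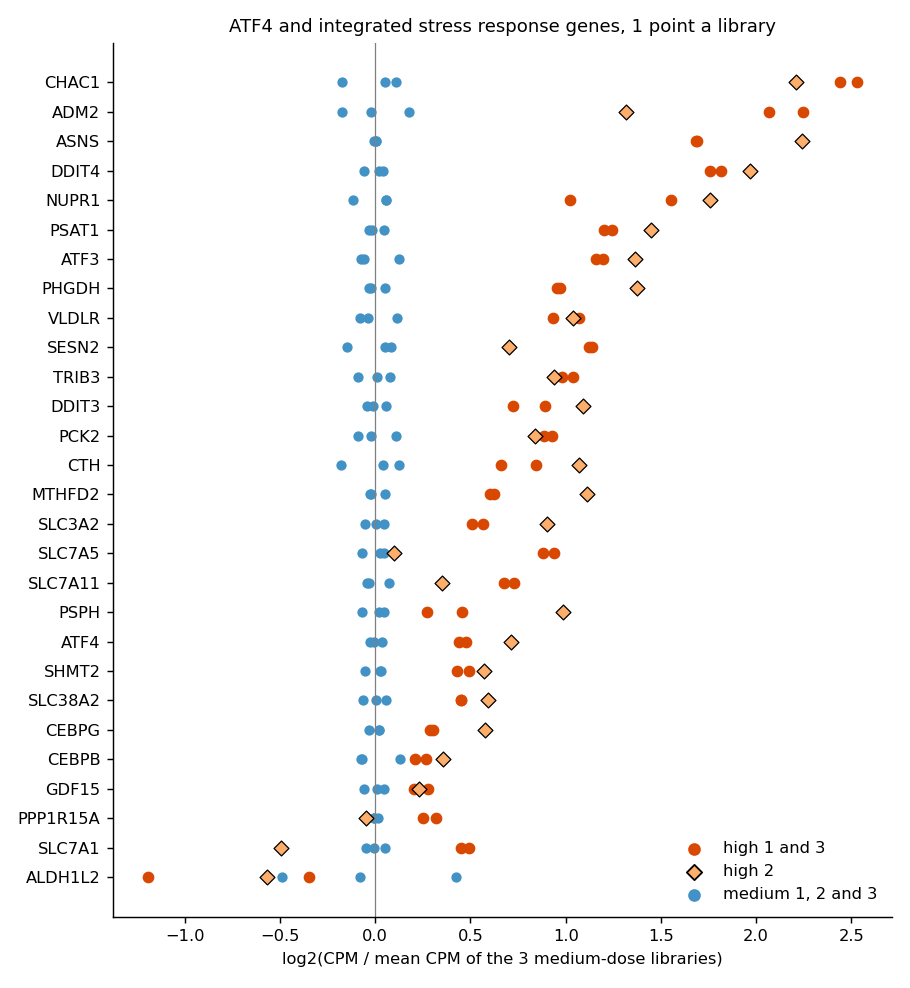
Tested members of the ATF4 and integrated stress response list (y axis) as log2 of the CPM in each library over the mean CPM of the 3 medium-dose libraries (x axis), 1 point a library. High replicates 1 and 3 lie right of the medium-dose libraries for all members but ALDH1L2, and high replicate 2, the diamond, lies beyond them for ASNS and near the medium dose for SLC7A5.

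Aminoacyl-tRNA synthetases, which charge transfer RNAs with amino acids and several of which are known ATF4 targets, also rose. Of the 20 cytosolic enzymes tested, 12 passed without high replicate 2, all higher, with a median log2 fold change of 0.26, and the number was 11 or 12 when 1 more library was left out. With 6 libraries none passed by edgeR, 12 were higher at an unadjusted p under 0.05, and DESeq2 called 10. Over all genes, 2.87% were called higher without high replicate 2. GARS1, which charges glycine, had 281, 334 and 292 CPM at the high dose and 194, 196 and 197 CPM at the medium dose (0.54 ± 0.04, adjusted p = 2.72e-06, edgeR). AARS1 for alanine, WARS1 for tryptophan and YARS1 for tyrosine rose by 0.51 ± 0.04, 0.48 ± 0.05 and 0.38 ± 0.04. Each of these 4 rises was smaller than that of any of the 7 stress response genes called with 6 libraries.

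Targets of NRF2, the transcription factor of the response to oxidants and electrophiles, moved in the same direction. Of 25 tested, 18 passed without high replicate 2, all higher, and 13 to 17 did when 1 more library was left out. With 6 libraries none passed by edgeR, 16 were higher at an unadjusted p under 0.05, and DESeq2 called 8. Without high replicate 2, 2.87% of all genes were called higher. HMOX1, the haem-degrading haem oxygenase 1, had 17.4, 22.7 and 18.6 CPM at the high dose and 10.5, 10.8 and 11.2 CPM at the medium dose (log2 fold change 0.73 ± 0.07 without high replicate 2, adjusted p = 6.28e-05, edgeR). SLC7A11, the cystine importer, is on both this list and the stress response list and had 341, 272 and 354 CPM at the high dose and 207, 225 and 209 CPM at the medium dose (0.70 ± 0.04, adjusted p = 9.67e-07). ALDH3A1, an aldehyde dehydrogenase, had 74.7, 82.2 and 74.8 CPM at the high dose and 52.2, 53.2 and 54 CPM at the medium dose (0.49 ± 0.04, adjusted p = 2.59e-05). For these 3 genes every high-dose library exceeded every medium-dose library. FTH1, the ferritin heavy chain that stores iron, and NQO1, a quinone reductase, rose by 0.43 ± 0.05 and 0.30 ± 0.04 (adjusted p = 0.000123 and 0.000664), and NQO1 had 1240 CPM in high replicate 2, against 780 and 795 CPM in the other high-dose libraries and 630, 652 and 636 CPM at the medium dose.

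Targets of the aryl hydrocarbon receptor, a sensor of planar aromatic ligands, did not move as a group between these doses. Of 9 tested, 3 were higher (NQO1, ALDH3A1 and SLC7A5, all also on other lists) and 1 lower (ALDH1A3) without high replicate 2. The shares over all genes there were 2.87% higher and 2.25% lower. With 6 libraries none passed by edgeR, 4 had an unadjusted p under 0.05 and DESeq2 called 2. CYP1A1, the receptor's best known target, had 92.9, 103 and 102 CPM at the high dose and 85.8, 91.3 and 95.2 CPM at the medium dose, with overlapping groups (0.10 ± 0.05, adjusted p = 0.345, edgeR, without high replicate 2). CYP1B1, a related enzyme, had 351, 302 and 361 CPM at the high dose and 376, 404 and 388 CPM at the medium dose (−0.13 ± 0.04, adjusted p = 0.0998). ALDH1A3, a retinal dehydrogenase, fell, with 69.6, 79.6 and 74.1 CPM at the high dose and 102, 99.2 and 101 CPM at the medium dose (−0.49 ± 0.05, adjusted p = 3.42e-05).

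The dose series of these genes had different shapes. CYP1A1 averaged 0.288 ± 0.154 CPM in vehicle, 3.81 ± 1.89 at the low dose, 90.7 ± 4.74 at the medium dose and 99.3 ± 5.6 at the high dose (SD, n = 3 each), so nearly all of its rise lay below the medium dose. ALDH1A3 averaged 18.7 ± 0.812, 38 ± 5.26, 101 ± 1.2 and 74.4 ± 5.02 CPM in the same order, with its highest mean at the medium dose. The stress response genes had the opposite shape. CHAC1 averaged 2.61 ± 0.476 CPM in vehicle, 2.84 ± 0.0338 at the low dose, 3.83 ± 0.386 at the medium dose and 20.2 ± 2.28 at the high dose. DDIT4 averaged 19.9 ± 0.723, 19.1 ± 0.117, 19.7 ± 0.665 and 70.9 ± 5.38 CPM in that order. Its 3 lower groups lay within 2 CPM of each other and the high dose alone stood above them. ALDH3A1 averaged 21.9 ± 1.11, 27.9 ± 1.3, 53.1 ± 0.938 and 77.2 ± 4.32 CPM, a rise at each step. These levels are a description, and only high against medium was tested.

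**Figure D3:**
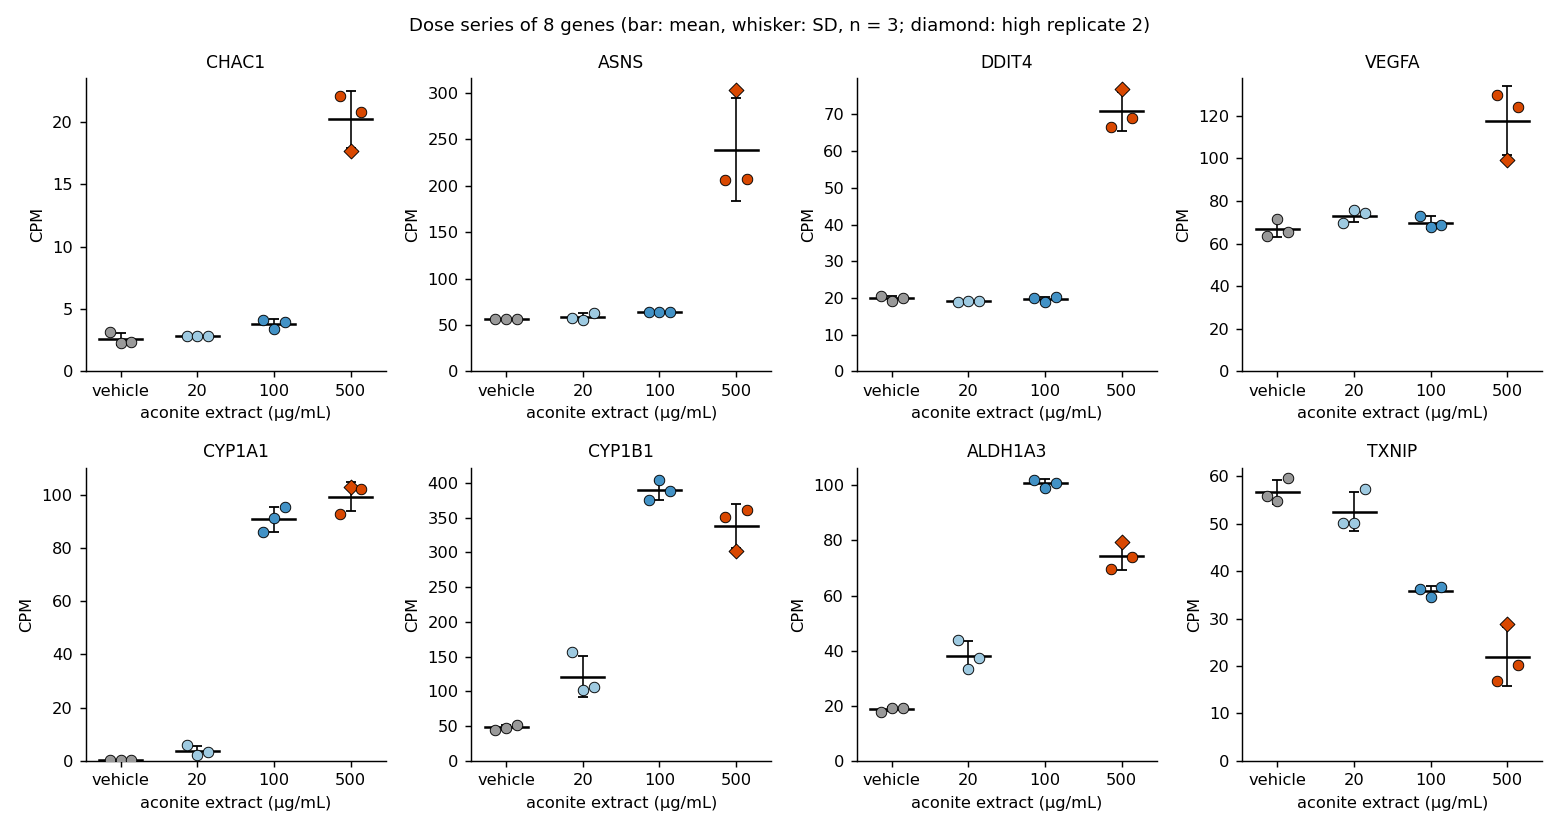
CPM (y axes) of 8 genes by aconite dose (x axes, vehicle and 20, 100 and 500 µg/mL), 1 point a library, bars for the mean and whiskers for the SD of 3 libraries, with high replicate 2 as a diamond. CHAC1, ASNS, DDIT4 and VEGFA are high at 500 µg/mL alone, CYP1A1 and CYP1B1 are already high at 100 µg/mL, ALDH1A3 is highest there, and TXNIP is lowest at 500 µg/mL.

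Targets of NF-κB, the transcription factor of inflammatory signalling, were higher in part. Of 18 tested, 7 passed without high replicate 2, all higher, beside 2.87% of all genes called higher. With 6 libraries none passed by edgeR, 8 were higher at an unadjusted p under 0.05, and DESeq2 called 3. The number of 7 was 2 without high replicate 3 and 4 without medium replicate 2 or medium replicate 3. ICAM1, a leukocyte adhesion molecule, had 11.5, 10.5 and 10.9 CPM at the high dose and 7.32, 6.41 and 6.32 CPM at the medium dose (0.75 ± 0.10 without high replicate 2, adjusted p = 0.000443, edgeR). CXCL1, a chemokine that attracts neutrophils, had 22.4, 34.9 and 24 CPM at the high dose and 13.5, 12 and 13.6 CPM at the medium dose (0.84 ± 0.07, adjusted p = 2.34e-05). CCL20, a chemokine for lymphocytes and dendritic cells, had 4.5, 8.58 and 5.12 CPM at the high dose and 2.22, 2.73 and 2.07 CPM at the medium dose (1.03 ± 0.16, adjusted p = 0.00217; 0.0501 without high replicate 3). High replicate 2 was the highest for both chemokines. CXCL3 passed narrowly (0.70 ± 0.18, adjusted p = 0.0478) and was lost without high replicate 3, medium replicate 2 or medium replicate 3 (adjusted p up to 0.399). CXCL1, CXCL2 and CXCL3 are near-identical in parts, so the counting may share reads among them.

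Growth factor signalling and immediate early genes moved little. Their calls without high replicate 2 stand beside 2.87% of all genes higher and 2.25% lower. Of 19 genes of MAP kinase feedback none passed with 6 libraries by edgeR or DESeq2 (3 higher at an unadjusted p under 0.05). Without high replicate 2, 4 were higher, and the number was 1 without high replicate 1, high replicate 3 or medium replicate 3. EREG, a ligand of the epidermal growth factor receptor, had 183, 158 and 174 CPM at the high dose and 148, 150 and 144 CPM at the medium dose (0.27 ± 0.04, adjusted p = 0.00172, edgeR). AREG, a related ligand, rose by 0.25 ± 0.06 (adjusted p = 0.0194), a call lost without high replicate 1, high replicate 3 or medium replicate 3 (adjusted p up to 0.14), and HBEGF and DUSP5, a phosphatase of ERK, gave 0.28 ± 0.08 and 0.30 ± 0.10 and did not pass (adjusted p = 0.079 and 0.103). Of 22 immediate early genes 4 were higher and 1 was lower, and with 6 libraries ATF3 alone passed (DESeq2 called 2). The 4 were ATF3, FOSB, JUN and, named after its value was seen, NR4A1, and the number was 1 without high replicate 3. FOSB rose by 0.62 ± 0.14 and JUN by 0.21 ± 0.05 (adjusted p = 0.0226 and 0.0357), and both were lost without high replicate 3 (adjusted p = 0.138 and 0.376). BTG2, an antiproliferative gene, fell, with 22, 18.2 and 20.3 CPM at the high dose and 30.8, 34.2 and 34.4 CPM at the medium dose (−0.66 ± 0.07, adjusted p = 0.000103).

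Genes of glucose use and hypoxia were higher in part, with 5 of 28 called higher without high replicate 2, and 3 without high replicate 1. None passed with 6 libraries by edgeR, 8 were higher at an unadjusted p under 0.05, and DESeq2 called 1. The share of all genes called higher without high replicate 2 was 2.87%. VEGFA, the vascular growth factor, had 130, 99.3 and 124 CPM at the high dose and 73.2, 67.9 and 68.7 CPM at the medium dose (0.86 ± 0.05, adjusted p = 1.83e-07, edgeR; 0.129 with 6 libraries). PFKP, a phosphofructokinase of glycolysis, and SLC2A1, the glucose transporter GLUT1, rose by 0.27 ± 0.04 and 0.26 ± 0.04 (adjusted p = 0.00131 and 0.00271). The other 2 called members were HK2 and ENO2, and PDK1, which restrains pyruvate oxidation, gave 0.21 ± 0.06 (adjusted p = 0.0728). TXNIP, which restrains glucose uptake and is driven by the glucose sensor MondoA, fell, with 16.8, 28.9 and 20.2 CPM at the high dose and 36.3, 34.5 and 36.6 CPM at the medium dose (−0.94 ± 0.08, adjusted p = 8.96e-06; 0.485 with 6 libraries). It was the only called member of 8 MondoA and ChREBP targets. Its mean was 56.7 ± 2.53 CPM in vehicle, 52.6 ± 4.12 at the low dose, 35.8 ± 1.15 at the medium dose and 22 ± 6.24 at the high dose.

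Of 28 interferon response genes tested, 9 passed without high replicate 2, all lower, beside 2.25% of all genes called lower, and the median log2 fold change of the 28 was −0.38. With 6 libraries none passed by edgeR or DESeq2, and 13 were lower at an unadjusted p under 0.05. Over all genes, 892 of 14764 had such a p with 6 libraries and 2933 of 15027 without high replicate 2, in either direction. All 3 high-dose libraries were below all 3 medium-dose libraries for 14 of the 28, which 8.53% of all genes tested were. The summed CPM of the 28 genes was 552.1, 586.7 and 561.3 at the high dose and 618.5, 673.1 and 818 at the medium dose. It was 695, 788.4 and 717.8 at the low dose and 657, 565.8 and 623.8 in vehicle, so the high dose lay nearer to vehicle. The sums were not tested. The count of 9 rested on single libraries: it was 1 without high replicate 1, 0 by edgeR without high replicate 3 (DESeq2 called 5 without high replicate 2, and 23 of the 28 had an unadjusted p under 0.05 there), 17 without medium replicate 1 and 4 without medium replicate 2 or medium replicate 3. OAS2, an RNA sensor, had 3.27, 3.5 and 3.32 CPM at the high dose and 4.12, 7.34 and 13 CPM at the medium dose (−1.31 ± 0.34, adjusted p = 0.0458, edgeR). MX1, an antiviral GTPase, had 6.22, 8.15 and 5.65 CPM at the high dose and 8.57, 11 and 19 CPM at the medium dose (−1.13 ± 0.26, adjusted p = 0.0238). The medium-dose libraries spread widely for both genes, with medium replicate 3 highest. IRF9, a subunit of the factor that carries the interferon signal, fell by 0.66 ± 0.12 (adjusted p = 0.00828), the RNA sensor RIGI by 0.58 ± 0.12 (adjusted p = 0.0177) and XAF1, an interferon-induced apoptosis gene, by 1.82 ± 0.48 (adjusted p = 0.0464). All 5 calls were lost without high replicate 3 (adjusted p = 0.135 for IRF9, 0.133 for RIGI, 0.229 for XAF1, 0.209 for OAS2 and 0.172 for MX1).

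Of the lists of the intestinal epithelium, none had a call by edgeR with 6 libraries, and calls without high replicate 2 stand beside 2.87% of all genes higher and 2.25% lower. With 6 libraries DESeq2 called 1 goblet and secretory gene, 2 of ion transport and calcium handling, 1 of tight junctions, 1 of enterocytes and none of stem cells, and 5, 5, 1, 2 and 2 had an unadjusted p under 0.05, all lower. Of 22 goblet and secretory genes 7 fell without high replicate 2 and 1 rose, the rise being MUC5AC, and the number that fell was 3 without high replicate 3. FCGBP, a mucus protein, had 21.1, 10.9 and 23.1 CPM at the high dose and 32.4, 29.7 and 31.8 CPM at the medium dose (−0.50 ± 0.07, adjusted p = 0.000664, edgeR). MUC13, a membrane mucin, had 101, 92 and 103 CPM at the high dose and 128, 119 and 122 CPM at the medium dose (−0.28 ± 0.04, adjusted p = 0.00257; 0.0574 without high replicate 1). Both genes were lower in all 3 high-dose libraries. The other members that fell were MUC2, AGR2, AGR3, SPINK1 and REG4, and the lineage factors HES1 and ATOH1 gave −0.21 and −0.55 and did not pass (adjusted p = 0.0547 and 0.157). The list did not move as 1 group. Of the 22 log2 fold changes without high replicate 2, 10 were above 0 and 12 below, from −0.57 to 0.86. At an unadjusted p under 0.05 by edgeR, 4 were higher and 10 lower. Without medium replicate 1 as well, 3 were called higher and 8 lower.

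Of 26 genes of ion transport and calcium handling 5 fell and 1 rose (STIM1) without high replicate 2, and the number that fell was 1 without high replicate 1 and 3 without high replicate 3, medium replicate 1 or medium replicate 3. KCNE3, a potassium channel subunit that supports chloride secretion, had 37.7, 41.2 and 37.3 CPM at the high dose and 48.6, 49.5 and 53 CPM at the medium dose (−0.43 ± 0.05, adjusted p = 0.000389, edgeR). CFTR, the apical chloride channel, had 118, 109 and 125 CPM at the high dose and 145, 150 and 146 CPM at the medium dose (−0.27 ± 0.04, adjusted p = 0.00241). SLC12A2, the basolateral chloride importer, had 484, 401 and 505 CPM at the high dose and 573, 650 and 589 CPM at the medium dose (−0.29 ± 0.05, adjusted p = 0.00681). For these 3 genes of chloride secretion the groups did not overlap. The calls of CFTR and SLC12A2 were lost without high replicate 1 (adjusted p = 0.0703 and 0.0931). HTR1D, a serotonin receptor, passed narrowly (−0.30 ± 0.07, adjusted p = 0.0355) and was lost without any 1 further library (adjusted p up to 0.2), and the other gene that fell was ITPR2.

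In other epithelial lists 1 or 2 genes fell, too few to set apart from the shares over all genes (2.87% higher and 2.25% lower). CLDN2, a pore-forming tight junction protein, had 92.9, 95.4 and 95.7 CPM at the high dose and 133, 123 and 132 CPM at the medium dose (−0.46 ± 0.05, adjusted p = 6.69e-05, edgeR), and of 24 tight junction and barrier genes 1 fell and 1, DSG2, rose. LGR5, the intestinal stem cell receptor, had 29, 19.2 and 29.7 CPM at the high dose and 37.9, 38.2 and 37.2 CPM at the medium dose (−0.37 ± 0.05, adjusted p = 0.00126). SLC5A1, the sodium and glucose cotransporter of enterocytes, had 10, 10.6 and 11.7 CPM at the high dose and 15.2, 14.8 and 15.3 CPM at the medium dose (−0.47 ± 0.08, adjusted p = 0.00574; 0.0785 without high replicate 1). All 3 were lower in every high-dose library than in any medium-dose library. Of 18 stem cell and Wnt genes 2 fell (LGR5 and DKK1) and 1 rose (AXIN2), and LGR5 alone remained without any 1 library other than medium replicate 1. Of 21 enterocyte genes 2 fell (SLC5A1 and CA2), and none did by edgeR without high replicate 1.

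Genes that did not pass with 6 libraries but were lower without high replicate 2 included CLIC5, a chloride intracellular channel protein, SLC38A11, a putative amino acid transporter, and UST, a sulphotransferase. CLIC5 had 12.9, 12.1 and 12.7 CPM at the high dose and 20, 20.4 and 20.7 CPM at the medium dose (adjusted p = 0.0531 with 6 libraries and 6.25e-05 without high replicate 2, edgeR). SLC38A11 had 5.36, 5.65 and 6.17 CPM at the high dose and 10.2, 9.28 and 9.95 CPM at the medium dose (adjusted p = 0.0958 and 0.00079), and UST 11.4, 11.6 and 11.5 CPM and 17, 16.2 and 17.3 CPM (adjusted p = 0.1 and 0.000616). The 3 high-dose libraries were close to each other for all 3 genes. Among the largest rises without high replicate 2, PLTP, the phospholipid transfer protein, had 2.91, 2 and 2.76 CPM at the high dose and 1.44, 1.35 and 1.28 CPM at the medium dose (1.06 ± 0.19, adjusted p = 0.00567; 0.0543 without high replicate 1). RSC1A1 had 7.77, 0 and 6.85 CPM at the high dose and 3.61, 2.8 and 3.92 CPM at the medium dose (1.09 ± 0.14, adjusted p = 0.000633). It lies within another gene, so its counts are uncertain.

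Sterol synthesis and the proteasome gave small falls without high replicate 2 and no call with 6 libraries by edgeR or DESeq2. Over all genes, 2.25% were called lower without high replicate 2. Of 25 genes of cholesterol synthesis 8 fell (1 lower at an unadjusted p under 0.05 with 6 libraries), and the number was 4, 3, 5 and 2 without high replicate 1, high replicate 3, medium replicate 1 and medium replicate 3. LSS, lanosterol synthase, fell by 0.18 ± 0.04 (adjusted p = 0.0336, edgeR; 0.225 without high replicate 3), and SQLE and TM7SF2 gave −0.17 and 0.19 and did not pass (adjusted p = 0.132 and 0.102). Of 31 proteasome subunits 7 fell, with PSMD1 at −0.17 ± 0.04 (adjusted p = 0.0254), 4 did without medium replicate 1 or medium replicate 2, and none did without high replicate 1, high replicate 3 or medium replicate 3 (adjusted p for PSMD1 up to 0.199). At an unadjusted p under 0.05, 15 of the 31 were lower without high replicate 2, and DESeq2 called 6. Over all genes, 2933 of 15027 had such a p there, in either direction, and DESeq2 called 506. With 6 libraries no subunit had an unadjusted p under 0.05. The median log2 fold change of the proteasome list was −0.11 without high replicate 2 and 0.13 with it, so its sign turned with that library.

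Several lists held few or no calls. The shares of all genes called without high replicate 2 were 2.87% higher and 2.25% lower. At an unadjusted p under 0.05 there were 2933 of 15027 genes in either direction. Without high replicate 2, none of 77 cytosolic ribosomal protein genes, 29 ribosome biogenesis genes, 35 replication genes, 25 mitosis genes and 7 metallothionein and zinc genes passed by edgeR or DESeq2 (2, 5, 9, 7 and 0 at an unadjusted p under 0.05), and 1 of 39 nuclear respiratory chain genes did (NDUFA2, lower, and none by DESeq2). The mRNAs of the respiratory chain encoded in the mitochondrion and in the nucleus therefore differed in their counts of calls, 11 of 13 against 1 of 39, a difference that was not itself tested. Of 22 chaperone and unfolded protein response genes of the endoplasmic reticulum 3 rose, HERPUD1, a component of its degradation machinery, by 0.41 ± 0.05, the transcription factor XBP1 by 0.26 ± 0.04 (adjusted p = 0.000274 and 0.00171, edgeR) and ERN1. Of 18 heat shock proteins 1 rose (HSPA1A, whose near-identical copy HSPA1B may share its reads), and HSPH1 gave 0.10 (adjusted p = 0.19). Of 23 targets of p53, 2 rose and 2 fell, and 1 each without high replicate 1 or high replicate 3: the pro-apoptotic BBC3 rose by 0.34 ± 0.09 (adjusted p = 0.0423; up to 0.212 when 1 more library was left out) and SESN1 fell by 0.37 ± 0.07 (adjusted p = 0.00892; up to 0.0829), beside SESN2 and BTG2, while CDKN1A gave 0.20 ± 0.08 (adjusted p = 0.162). MYC gave 0.16 ± 0.05 (adjusted p = 0.109). None of the endoplasmic reticulum, heat shock and p53 genes passed with 6 libraries by edgeR, and DESeq2 called 1, 0 and 2.

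The remaining lists had from 1 to 4 calls each without high replicate 2, given with all the genes called. The shares over all genes were 2.87% higher and 2.25% lower. Counts this small were not tested against them and are not read as results about the lists. Higher were ABCG1 of 7 LXR targets, ME1 of 11 fatty acid synthesis genes, NR1D1 of 17 clock genes, TSC22D3 of 8 glucocorticoid response genes, SQSTM1 of 31 autophagy and lysosome genes and BBC3 of 21 apoptosis regulators. Of 22 genes of drug transport and metabolism 3 were higher (ABCC3, UGT1A10 and SLCO4A1) and 1 lower (ABCG2), and of 16 histone genes 2 were lower (H2AC6 and H2AZ2). PLIN2 was higher and VNN1 lower among 15 PPAR targets, and GAS5 higher and NEAT1 lower among 10 nuclear-retained and structured RNAs. Without high replicate 1 as well, no gene of these lists passed by edgeR other than 1 of the fatty acid list, and with 6 libraries none did by edgeR and 1, of that same list, by DESeq2.

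**Figure D4:**
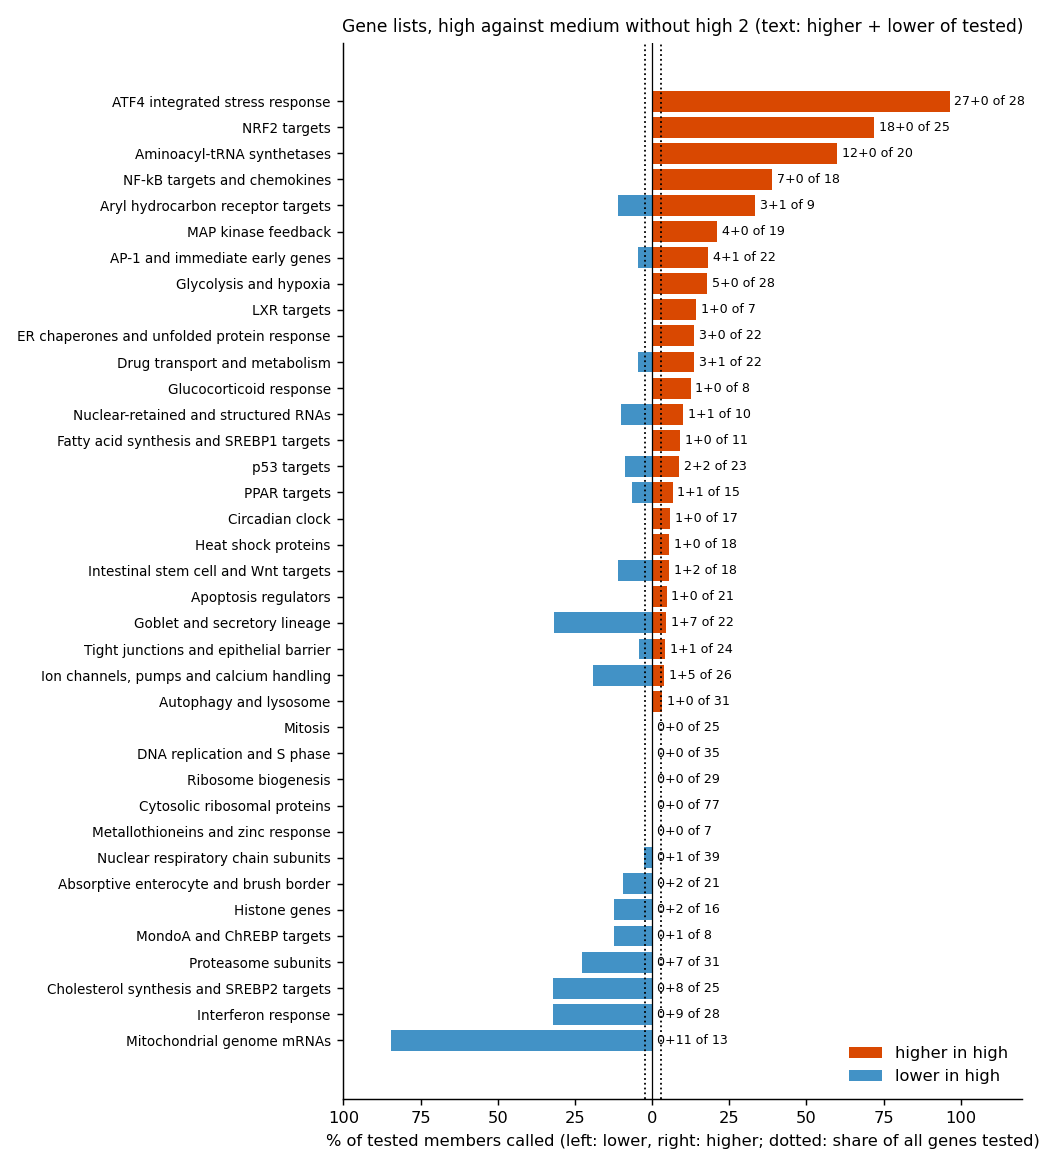
Share of the tested members of each gene list that was called (x axis, %) without high replicate 2, higher at the high dose to the right and lower to the left, with the numbers beside each list and dotted lines for the shares over all genes tested, 2.87% higher and 2.25% lower. The stress response list (27 of 28) and the mitochondrial mRNAs (11 of 13) lie at the ends.

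High replicate 2 moved whole lists in ways the other high-dose libraries did not. The median of the cytosolic ribosomal protein genes lay −0.06, 0.73 and 0.04 from the medium-dose mean on the log2 scale in high replicates 1, 2 and 3, that of the nuclear respiratory chain genes −0.10, 0.66 and −0.02, and that of the proteasome −0.12, 0.55 and −0.10. In these lists replicates 1 and 3 lay near the medium dose and replicate 2 far above it. The interferon list, by contrast, lay at −0.36, −0.32 and −0.39, and NRF2 targets at 0.28, 0.46 and 0.29. Across genes, the difference of high replicate 2 from the medium-dose mean went down with exon length (Spearman's rho −0.326, against 0.0864 and 0.0574 for replicates 1 and 3), and the part of RNA quality, depth or library preparation in this was not tested.

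**Figure D5:**
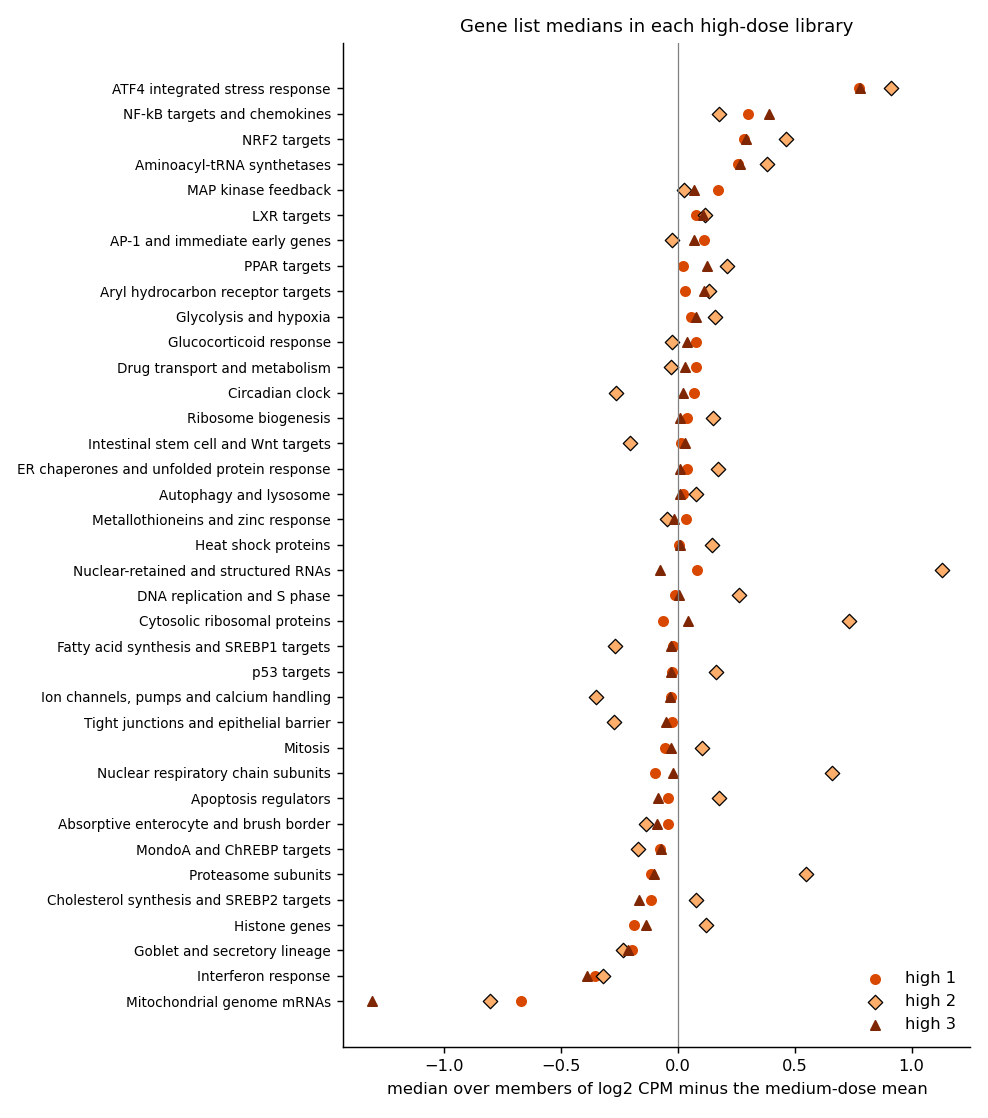
Median over the tested members of each gene list (y axis) of the log2 CPM minus the medium-dose mean (x axis), 1 point for each high-dose library. High replicates 1 and 3 lie close together in most lists, and high replicate 2, the diamond, lies apart for ribosomal proteins (0.73), nuclear respiratory chain subunits (0.66), proteasome subunits (0.55) and structured RNAs (1.13).

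Bupleurum root, given at the same doses, asks whether the step in dose alone had the same effect with another extract. The effect of high against medium dose differed between aconite and bupleurum for 16 of 15590 genes (0.103%; edgeR's test of the interaction over 12 libraries with Benjamini-Hochberg adjustment), 12 with the larger log2 fold change in aconite (0.077%) and 4 with the smaller (0.0257%). Without high replicate 2 of aconite the numbers were 57 of 16091 (0.354%), 40 (0.249%) and 17 (0.106%), and the count of 16 was 9 without medium replicate 1 or medium replicate 2 of aconite or high replicate 2 of bupleurum, and 10 without high replicate 3 or medium replicate 3 of bupleurum. MT-RNR1 averaged 30700 ± 1780 CPM at the high dose and 3220 ± 256 CPM at the medium dose of aconite, and 1270 ± 107 CPM at the high dose and 1100 ± 240 CPM at the medium dose of bupleurum (SD, n = 3 each), a difference of the log2 fold changes of 3.04 ± 0.21 (SE, adjusted p = 2.05e-05). DDIT4 averaged 70.9 ± 5.38 and 19.7 ± 0.665 CPM in aconite and 17.4 ± 0.938 and 18.5 ± 0.992 CPM in bupleurum at the high and medium doses, a difference of 1.94 ± 0.12 (adjusted p = 1.13e-05). Neither RNA was raised at the high dose of bupleurum beyond the spread of its libraries. CYP1A1 went the other way, with 99.3 ± 5.6 and 90.7 ± 4.74 CPM in aconite and 3.77 ± 0.0979 and 0.809 ± 0.281 CPM in bupleurum, a difference of −2.05 ± 0.20 (adjusted p = 0.000525). Its libraries at the 2 aconite doses overlapped, while in bupleurum, at far lower levels, the mean at the high dose lay above that at the medium dose by more than the SD of either group. Of 28 stress response genes, 9 differed between the extracts, and 16 without high replicate 2 of aconite. None of 25 NRF2 targets, 13 mitochondrial mRNAs and 28 interferon genes did in either fit. Their median differences over 12 libraries were 0.03, −0.85 and −0.17. Of 20 synthetases none differed, and 4 without that library. Genes that did not pass are not shown to respond alike.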

How the data were processed

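The authors deposited 1 table of expected counts per gene, estimated by RSEM and not normalized, for 60675 Ensembl genes. RSEM 1.3.3, STAR 2.7.3a, Trim Galore 0.6.5, FastQC 0.11.9 and the genome GRCh38/hg38 are named per the submitters' processing notes. Per the labels' protocols, 1 µg of total RNA (integrity number over 7) went into a directional mRNA library kit and was sequenced as 100 bp paired reads. The sources used here do not give the annotation, the counting settings or the step that selects mRNA. RSEM shares ambiguous reads among genes, so 8.68% of the values were not whole, and near-identical copies and overlapping genes are uncertain.

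Of 270 columns, 60 match samples of the series and 210 were not used. The expected counts were rounded, filtered with edgeR's filterByExpr (minimum count 10), scaled by TMM and tested with edgeR 4.0.16 in R 4.3.3 (quasi-likelihood test) on the libraries compared alone, with Benjamini-Hochberg adjustment over all genes tested and a threshold of 0.05. Standard errors are the log2 fold change over the root of F. CPM were scaled by TMM over 18 libraries (3 each of vehicle, 3 aconite doses and 2 bupleurum doses). Medians by library use log2 CPM with a prior count of 2. The tests were also run on simulated counts. These held no library that stood apart and no trend with exon length, so they cannot show how the tests fare with high replicate 2. Alternatives were DESeq2 1.42.0 as test and as scaling, limma 3.58.1 (voom with library weights), no filter, a length offset, other libraries in the fit, the replicate block and each library left out, with the mitochondrial genome left out added after the data were seen.

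Symbols were matched for 56558 genes and coordinates (GENCODE 29, GRCh38) for 57055, and promoters came from RefSeq GRCh38.p14. Genes named are the largest changes among genes called with 6 libraries (up to 12 in each direction) and without high replicate 2 (up to 8), with a mean log2 CPM of at least 1, groups that did not overlap and no clone or LINC name, falls nearest the threshold with 6 libraries where fewer than 8 were called, up to 4 members of each of 37 lists by adjusted p, up to 5 rises and 5 falls for the difference from bupleurum, and a few fixed genes. Other members named to account for a count were named after their values were seen. The comparison, its members, the lists and the tests were chosen with earlier results of these data known, so a list's direction is not independent support. Not every gene that the naming rule picks is named: many list members are given as counts alone, and 1 gene is not reported here.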

Additional observations from a re-analysis of the deposited data

Results flagged for a closer look

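The effect of high against medium dose differed between aconite and bupleurum for 16 genes, by edgeR's test of the interaction over 12 libraries with Benjamini-Hochberg adjustment. The 12 with a larger log2 fold change in aconite were the mitochondrial ribosomal RNAs MT-RNR1 (difference of the log2 fold changes, aconite minus bupleurum, 3.04) and MT-RNR2 (2.52) and 10 genes of amino acid supply and stress. DDIT4 differed by 1.94, CHAC1 by 2.08, ASNS by 1.80, PSAT1 by 1.28 and TRIB3 by 1.11, and these 5 genes, both ribosomal RNAs and CYP1A1 were called whichever library was left out. ADM2 differed by 2.09, JDP2 by 1.47, VLDLR by 1.30, PHGDH by 1.06 and PCK2 by 0.92.

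The 4 with a smaller log2 fold change in aconite were CYP1A1 (−2.05), MTND2P28 (−1.25), CYP1B1 (−0.70) and ALDH1A3 (−0.67). CYP1B1 averaged 338 ± 31.7 CPM at the high dose and 389 ± 14.4 CPM at the medium dose of aconite, and 96.5 ± 3.71 CPM at the high dose and 68.2 ± 2.85 CPM at the medium dose of bupleurum (SD, n = 3 each). ALDH1A3 averaged 74.4 ± 5.02 and 101 ± 1.2 CPM in aconite and 27.5 ± 1.01 and 23.4 ± 0.664 CPM in bupleurum at the high and medium doses.

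Leaving out 1 of the 12 libraries ended the call of CYP1B1 and of ADM2 in 11 cases each (adjusted p up to 0.21 and 0.157), of ALDH1A3 in 10 (up to 0.165), of MTND2P28 in 9 (up to 0.206), of PHGDH in 8 (up to 0.139), of JDP2 and PCK2 in 3 each (up to 0.0739 and 0.0553) and of VLDLR in 2 (up to 0.0575).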

How the results depend on the processing

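Results with 6 libraries depended on how the spread was estimated. Against 11 genes called, 710 were with all groups in the fit, 88 with the low dose also in it, 129 by DESeq2, 727 by limma voom with library weights (which gave high replicate 2 a weight of 0.0666, others 1.07 to 2.27), 41 with no filter, 28 with a length offset, 7 without the mitochondrial genome and 4 to 770 with 1 library left out. Of the 770 genes called without high replicate 2, 605 were among the 727 of the weighted fit and 371 among the 710 of the fit with all groups. Without high replicate 2, the counts were 463 with all groups, 503 with the low dose, 506 by DESeq2, 1279 with no filter and 267 to 754 with 1 more library left out. For the difference from bupleurum, against 16, they were 153 with all groups, 59 by DESeq2, 53 with no filter, 23 with the length offset and 9 to 57 with 1 library left out.

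Same-numbered libraries of the 2 doses deviated from their group means with r = 0.135, 0.124 and −0.0323 over genes. High replicates 1 and 2 correlated best with the medium replicates of the same number, and high replicate 3 with medium replicate 1 (0.108). Weak correlations of deviations from means of 3 libraries cannot settle whether the numbers pair the libraries. The main fits left them unpaired. With the replicate block, 4 genes were called with 6 libraries, 1159 without high replicate 2 and 11 for the difference from bupleurum.

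The alternatives were followed for 93 of the genes named, and not for all those named only to account for a count. Among the genes followed, signs turned for MT-ND5 and MT-ND6 alone. MT-ND5 (−0.04 with 6 libraries, −0.21 with 5) ranged from −0.21 to 0.20 and from −0.69 to 0.15 with 1 library left out, turning without medium replicate 1 (0.08), medium replicate 2 (0.000274) and high replicate 3. MT-ND6 (0.39 and −0.057) ranged from −0.057 to 0.68 and from −0.47 to 0.28, turning without high replicate 2, without high replicate 3 and without medium replicate 2 (0.0369), and gave −0.10 by voom with 6 libraries, 0.0072 with the replicate block and 0.023 with the length offset with 5. The cause was not tested. Of 77 named genes called without high replicate 2, 54 were called under every alternative. Levels near 1 CPM rest on few counts, most of all in high replicate 2.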
